A study of Mus musculus with 6 samples.

Results

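The Cyp4a genes encode cytochrome P450 enzymes of the endoplasmic reticulum that add a hydroxyl group to the terminal (omega) carbon of fatty acids. The omega-hydroxy acids are oxidised onward to dicarboxylic acids, which peroxisomes shorten, and hydroxylation of arachidonic acid gives the signalling lipid 20-HETE. In mouse liver, Cyp4a10 and Cyp4a14 are classic targets of the fatty acid receptor PPARα, whereas Cyp4a12 is expressed more in males than in females and follows androgen and growth hormone. Members were the non-control probes whose transcript accession maps to the RefSeq symbol Cyp4a10, Cyp4a12a, Cyp4a12b, Cyp4a14, Cyp4a31 or Cyp4a32. These were 10 probes for 6 genes, out of 39429 probes and 20659 named genes on the array. The genes were chosen by the difference of their signals between Sec15 KO and WT liver, which was already known, so these differences are a description and carry no test. The probes were kept apart, because the genes are close copies and a probe of one may take up transcripts of another.

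Liver total RNA was read on 6 one-colour oligonucleotide arrays, 3 for mice labelled Sec15 KO and 3 for WT mice. All the animals were untreated males aged 6 weeks, and neither group carries any further allele or agent in the labels. Sec15 belongs to the exocyst, which holds secretory vesicles at the cell surface before they fuse, and the study asks how it directs the traffic of the transcription factor STAT3 in blood stem cells. The labels do not say which of the 2 mouse Sec15 genes was deleted, which part of it, or whether the deletion was confined to a tissue, and they give no strain. Nor do they say whether the samples of a group are separate animals, and the p-values below therefore rest on a spread between samples that can be technical in part. Files of WT replicates 1 and 2 were named with the same number, so both may be from 1 animal. Their arrays were nonetheless the least alike WT pair (correlation 0.980), and WT replicate 3 was nearer to each (0.988 and 0.991). KO replicate 3 was likewise nearer to KO replicates 1 and 2 (0.993 and 0.975) than these were to each other (0.969). A sample that lies between the other 2 makes the spread within its group smaller. The reason for this pattern was not tested.

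A probe counted as measured when 3 or more of the 6 arrays flagged it as well above background, which held for 27024 probes. Levels are log2 signals relative to the array's 75th percentile, so a level of 0 is that percentile, and with 6 arrays their number limits the precision. In Sec15 KO 64.8% to 65.4% of probes were well above background on an array, against 67.3% to 70.3% in WT. Scan times in the file headers place KO replicate 2 with the 3 WT arrays, here called slide 1, and KO replicates 1 and 3 together as slide 2. These names rest on scan time alone, since the labels give no slide or batch, and a within-slide value can only set KO replicate 2 against the WT arrays. Of the Sec15 genes, the Exoc6 probe was well above background on 0 KO arrays and 1 WT array. One Exoc6b probe was well above background on no array, and the other was lower in KO by 0.53 on the log2 scale (SE 0.15, limma adjusted p = 0.0436), a call that held without WT replicate 1 (adjusted p = 0.0305) and was lost without any other single array (adjusted p = 0.0593 to 0.147). Whether these probes lie in the deleted part is unknown, so they do not settle the genotype. Of 17 measured hepatocyte markers, 8 rose and 1 fell in KO past a limma adjusted p of 0.05 (52.9%, against 28.6% of all probes tested). The 1 that fell was Fga on its brightest probe, while its other probe rose by 0.88 (adjusted p = 0.0107).

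The 6 genes did not move one way. Cyp4a14, Cyp4a10, Cyp4a31 and Cyp4a32 were higher in Sec15 KO liver, by 15.4-fold for Cyp4a14 and by about 2-fold on most probes of the other 3 genes. Cyp4a12a and Cyp4a12b were lower in KO, by 3.02-fold and 3.17-fold. Every member probe had a signal well above background on each array, so all 10 entered the fit. Of these 10, 6 were higher and 2 lower past a limma adjusted p of 0.05, against 28.6% of all probes tested (17.0% higher and 11.6% lower). The groups did not overlap in the same 8 probes, against 50.2% of all probes tested (30.6% higher and 19.6% lower), and nothing is read from either count, since the contrast chose the genes. The same 6 probes were at least 2-fold higher, as were 2.83% of all probes, and the same 2 at least 2-fold lower, as were 8.19%. In liver RNA as a whole, fewer cells of a type and less RNA per cell cannot be told apart.

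**Figure D1:**
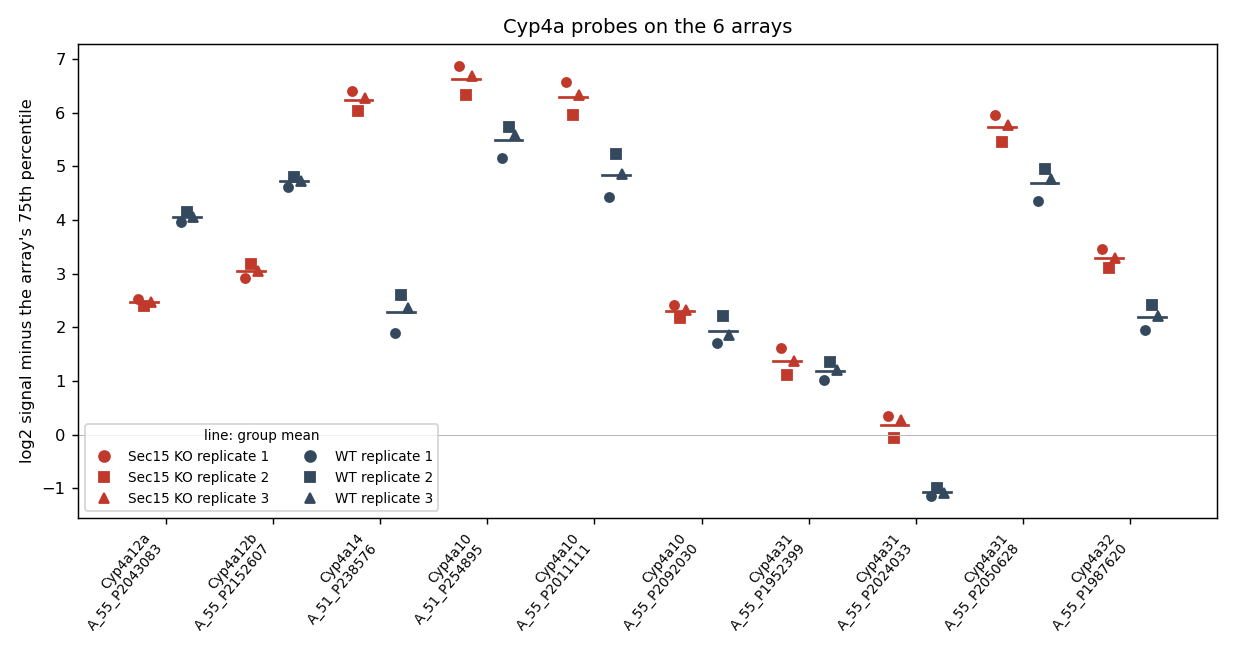
Level of each Cyp4a probe on each array, as log2 signal minus the array's 75th percentile, with Sec15 KO in red left of WT in dark blue, a marker shape for each replicate and a line at each group mean. The KO points lie above all WT points in 6 probes, below them in Cyp4a12a and Cyp4a12b, and among them in 1 probe each of Cyp4a10 and Cyp4a31.

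Cyp4a14, the lauric acid hydroxylase that fibrates and fasting induce in mouse liver, had the widest separation. Its probe A_51_P238576 read 6.40, 6.04 and 6.28 on the 3 Sec15 KO arrays, against 1.90, 2.61 and 2.36 on the 3 WT arrays. The lowest KO array stood 3.43 above the highest WT array, and the KO values were close together. The difference was 3.95 on the log2 scale (SE 0.21), the 9th largest of the positive differences among 27024 probes. Within slide 1, KO replicate 2 lay 3.75 above the WT mean, so the difference was nearly as large among the arrays with 1 scan time.

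Cyp4a10, the other PPARα-responsive hydroxylase, is read by 3 probes. Probe A_51_P254895 gave 6.88, 6.32 and 6.69 in Sec15 KO, against 5.16, 5.73 and 5.58 in WT. Probe A_55_P2011111 gave 6.57, 5.95 and 6.32 in Sec15 KO, against 4.43, 5.24 and 4.85 in WT. In both probes the 3 KO arrays stood above the 3 WT arrays, with KO replicate 2 the nearest to WT and WT replicate 2 the nearest to KO. The differences were 1.14 (SE 0.21, 2.20-fold) and 1.44 (SE 0.25, 2.72-fold) on the log2 scale. KO replicate 2 alone gave 0.84 and 1.11 within slide 1. The third probe, A_55_P2092030, read 2.41, 2.18 and 2.32 in Sec15 KO, against 1.71, 2.21 and 1.86 in WT. Here WT replicate 2 lay just above KO replicate 2, so the groups overlapped, and the difference of 0.38 (SE 0.16, 1.30-fold) was smaller than on the other probes of the gene.

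Cyp4a31 is the next protein-coding gene after Cyp4a10 in the cluster and also has 3 probes, which disagreed in size. Probe A_55_P2050628 read 5.95, 5.46 and 5.77 in Sec15 KO, against 4.35, 4.95 and 4.77 in WT, a difference of 1.04 (SE 0.21, 2.05-fold). Probe A_55_P2024033 read 0.35, -0.07 and 0.28 in Sec15 KO, against -1.15, -0.98 and -1.08 in WT, a difference of 1.26 (SE 0.14, 2.39-fold). Both probes had every KO array above every WT array. Probe A_55_P1952399, designed on the same accession as A_55_P2024033, read 1.62, 1.10 and 1.38 in Sec15 KO, against 1.02, 1.35 and 1.21 in WT. Its groups overlapped, the difference was 0.17 (SE 0.17), and the sign turned to -0.089 within slide 1 and to -0.0073 after cyclic loess normalization.

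Cyp4a32, the last Cyp4a gene of the cluster, had 1 probe. It read 3.45, 3.11 and 3.29 in Sec15 KO, against 1.95, 2.42 and 2.22 in WT. The KO arrays were again all higher, by 1.09 on average (SE 0.16, 2.13-fold) and by 0.92 within slide 1. Of the 6 genes, Cyp4a32 alone matched an entry of the RefSeq promoter table (GRCm38.p6), and its upstream stretch is shown as the only member promoter at hand among the genes that were higher in KO together. The 250 bases before its start, chr4:115600688-115600937 on the + strand, read as follows, with the 1 motif match in capitals.

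Cyp4a32: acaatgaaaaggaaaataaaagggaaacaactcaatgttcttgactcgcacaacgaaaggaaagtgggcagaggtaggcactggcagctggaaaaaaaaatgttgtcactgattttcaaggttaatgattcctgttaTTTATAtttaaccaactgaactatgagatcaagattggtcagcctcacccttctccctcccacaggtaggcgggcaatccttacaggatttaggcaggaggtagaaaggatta

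The capitals mark TTTATA, the reverse complement of the TATA box TATAAA, 113 to 108 bases before the start. TATAAA, read on both strands, is in 12.4% of the 32851 promoter windows of that table. The nuclear receptor site AGGTCA (14.0% of windows), the PPAR-RXR direct repeat of it with 1 base between (0.0335%, each of which also holds the single site), a looser repeat with any base at the fourth position of each copy (0.338%) and the STAT motif TTCNNNGAA (7.02%) were searched on both strands and are not in this window. A match or its lack describes only these letters in this window.

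Cyp4a12a and Cyp4a12b went the other way. Cyp4a12a is the main arachidonic acid omega-hydroxylase of male mice. Its probe read 2.53, 2.39 and 2.47 in Sec15 KO, against 3.97, 4.14 and 4.06 in WT. Cyp4a12b, a near copy, read 2.92, 3.18 and 3.06 in Sec15 KO, against 4.62, 4.81 and 4.73 in WT. All KO arrays were well below all WT arrays in both probes, and the spread within each group was small beside the gap. The differences were -1.59 (SE 0.10) and -1.67 (SE 0.11) on the log2 scale. Within slide 1 they were -1.66 and -1.54. Across settings the Cyp4a12 differences ranged from -1.86 to -1.47 and from -1.94 to -1.54.

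The probes were also compared by the root mean square difference over the 6 arrays of levels centred on each probe's own mean. A value of 0 would be an identical pattern. The closest pair was Cyp4a10 A_51_P254895 and Cyp4a31 A_55_P2050628, at 0.05. Cyp4a12a and Cyp4a12b differed by 0.12. The farthest pair was Cyp4a12b and Cyp4a14, at 2.82. The 2 Cyp4a10 probes A_51_P254895 and A_55_P2092030 differed by 0.40, more than Cyp4a10 A_51_P254895 differed from Cyp4a32, at 0.08. Probes of 1 gene were thus not always nearer to each other than to probes of a neighbour. With 6 arrays in 2 groups, these distances mainly restate how far the KO minus WT differences lie apart, so nothing more is read from them.

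Arrays ranked alike across the family within each group. In all 8 probes that were higher in KO, KO replicate 1 was the highest and KO replicate 2 the lowest KO array, with median deviations of 0.20 and -0.26 from the KO mean. In the same 8 probes WT replicate 2 was the highest and WT replicate 1 the lowest WT array, with median deviations of 0.25 and -0.29 from the WT mean. Cyp4a12a followed the same order on a smaller scale, and Cyp4a12b did so among the WT arrays and ran the opposite way among the KO arrays. This order of arrays was found in 9 of the 10 member probes, against 6.21% of all probes tested and 14 of 56 measured PPARα targets. The comparison of array order was added after the values were seen, and the member probes are not independent of each other. Since the order was read from these same member probes, their count was high by construction and nothing is read from it. KO replicate 2 is also the only KO array on slide 1, so its place among the KO arrays cannot be told apart from the slide.

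**Figure D2:**
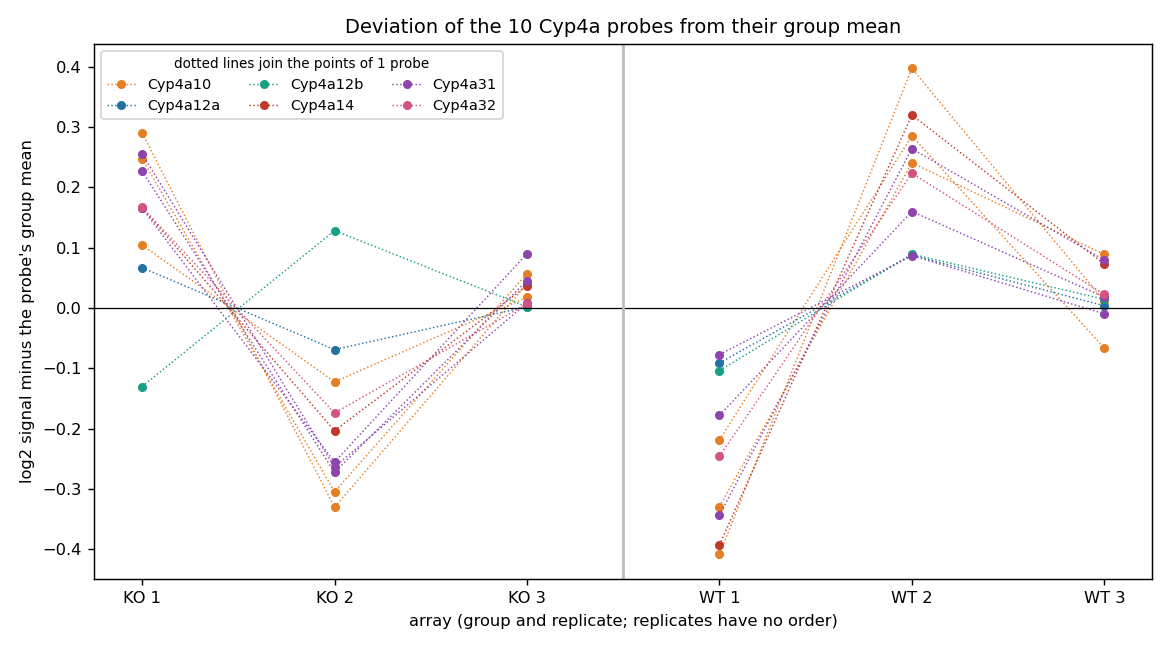
Deviation of each Cyp4a probe from its group mean (log2) on each of the 6 arrays, with KO left and WT right and dotted lines joining the points of 1 probe. KO 1 and WT 2 are above the group mean and KO 2 and WT 1 below it in all probes except Cyp4a12b, whose KO points run the other way.

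The members lie in 1 cluster on chromosome 4, with Cyp4a12a and Cyp4a12b at one end and Cyp4a14, Cyp4a10, Cyp4a31 and Cyp4a32 towards the other. Of the genes between and beside them, several pseudogenes and non-coding genes have no probe on the array, and only those that passed the filter entered the fit. Cyp4a30b, between Cyp4a12b and Cyp4a14, differed by -0.05 (limma adjusted p = 0.687), and the pseudogene Cyp4b1-ps2, between Cyp4a31 and Cyp4a32, by 0.01 (adjusted p = 0.972). Cyp4a29 and Cyp4x1 were well above background on no array. Cyp4b1, a P450 of short chain fatty acids and foreign compounds just beyond Cyp4a32, differed by 0.36 (adjusted p = 0.0954). Among outer neighbours, Stil fell by 0.62 on the log2 scale (adjusted p = 0.0472) and Tex38 rose by 0.49 (adjusted p = 0.0458) on its measured probe, while the probes of Tal1, Pdzk1ip1 and Efcab14 did not pass. Both calls were lost without any single array other than KO replicate 2 (adjusted p = 0.0521 to 0.153 for Stil and 0.0946 to 0.156 for Tex38), and within slide 1 they stood at -0.32 and 0.32.

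**Figure D3:**
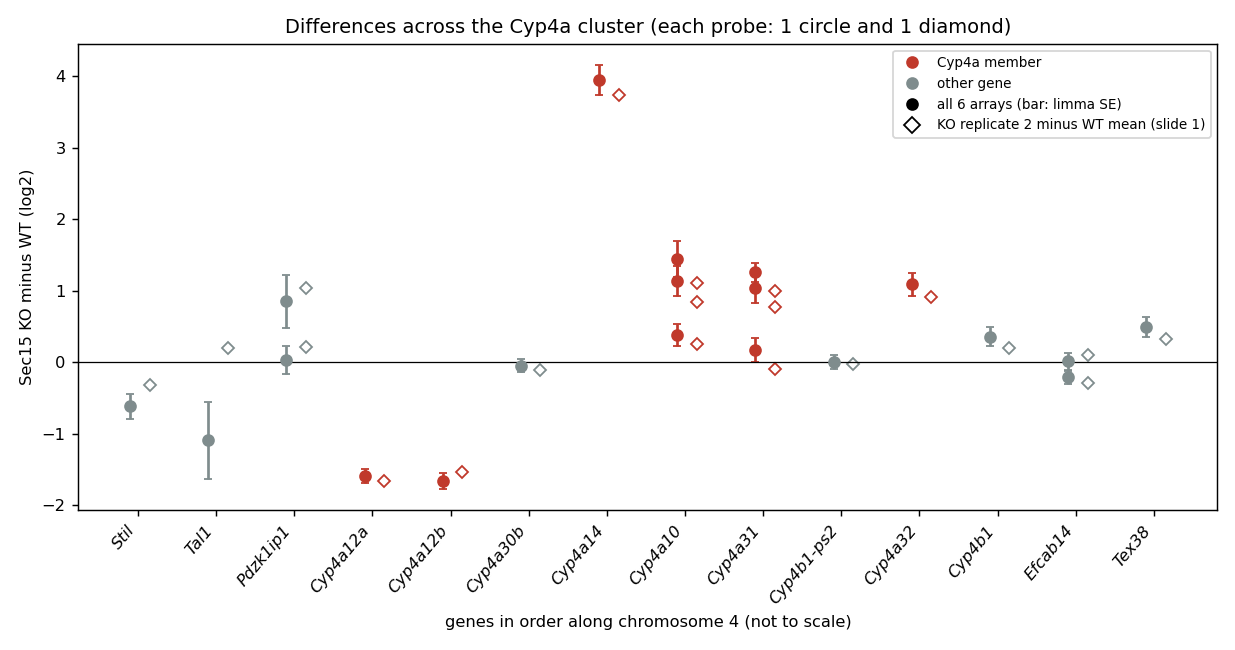
Sec15 KO minus WT difference (log2) of the measured genes of the Cyp4a cluster and its neighbours in their order on chromosome 4, not to scale, with Cyp4a members in red. Circles with bars are the mean difference over all arrays and its limma SE, and open diamonds are KO replicate 2 minus the WT mean. Cyp4a14 stands at 3.95, the Cyp4a12 pair at -1.59 and -1.67, and Cyp4a30b between them at -0.05.

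Genes outside the family whose levels followed a member most closely were found by the same root mean square difference, over the 6 arrays. Nearest to Cyp4a10 A_55_P2011111 were Acot1 (0.09), Ehhadh (0.13) and Acot3 (0.20), all peroxisomal or cytosolic enzymes of fatty acid breakdown. Nearest to Cyp4a32 were Insig2 (0.05), Egln3 (0.05) and Gm4952 (0.06), and Egln3 and Insig2 were among the nearest 3 for Cyp4a10 A_51_P254895 and Cyp4a31 A_55_P2050628 too. The remaining gene was Ccl6 (0.10) for that Cyp4a10 probe and Nubpl (0.10) for that Cyp4a31 probe. Cyp4a14 had no near match: Prelid2 (0.21), Ciart (0.29) and Cux2 (0.29) came closest, and Ciart and Cux2 lacked a signal well above background on the WT arrays. Nearest to Cyp4a12a were Zfp457 (0.09), Lhx9 (0.11) and Gatad2a (0.14), and nearest to Cyp4a12b were Gatad2a (0.08), Zfp457 (0.11) and Lrrc9 (0.11). Nearest to Cyp4a31 A_55_P2024033 were Olfr187 (0.03), Megf9 (0.04) and Ppp1r15a (0.06), with Olfr187 the closest match of all. Nearest to Cyp4a31 A_55_P1952399 were Snx10 (0.04), Pnldc1 (0.04) and Ankrd13c (0.05), and nearest to Cyp4a10 A_55_P2092030 were Nup35 (0.04), Pard3 (0.04) and Oit3 (0.04). With 6 arrays in 2 groups, this likeness mainly says that the differences between groups are of similar size.

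PPARα targets other than Cyp4a were counted next. Of 56 measured, 27 rose and 4 fell in Sec15 KO (55.4%, against 28.6% of all probes tested). Their median log2 difference was 0.37, against 0.08 over all probes tested. Hepatocyte markers gave much the same: 8 of 17 rose (47.1%, against 48.2% of the PPARα targets), with a median of 0.45. A rise of this size was thus not particular to PPARα targets. Ehhadh, the peroxisomal bifunctional enzyme that shortens dicarboxylic acids, read 4.13, 3.59 and 3.93 in Sec15 KO, against 2.22, 2.58 and 2.45 in WT (difference 1.47, SE 0.18, limma adjusted p = 0.00748). Acot3 and Acot1, which hydrolyse acyl-CoA, rose by 1.66 (SE 0.20, adjusted p = 0.00752) and 1.40 (SE 0.30, adjusted p = 0.0237). Acot3 is counted again below among the female-biased liver genes, and Ehhadh among the enzymes that act after Cyp4a. Plin5, a lipid droplet protein, rose by 1.34, Etfdh, which passes electrons from fatty acid oxidation to ubiquinone, by 0.99, Decr1, a reductase of unsaturated fatty acids, by 0.79 on 1 of its 2 probes, and Slc27a2, which activates very long chain fatty acids, by 0.64. The 4 that fell, named after their values were seen, were Slc27a1, Hadha, Aqp7 and Ucp2. The other 25 did not pass. The counts leaned on single arrays: 0 of 56 passed without WT replicate 3, 6 rose without KO replicate 3, 14 rose without KO replicate 1 and 15 without WT replicate 2. When the slide was a block, 12 rose and 2 fell, and the median was 0.33. The median was 0.18 after cyclic loess normalization and 0.19 with normexp background correction followed by quantile normalization. Over this and the following lists, 48 entries were named by rule for repeated fits, with a gene on more than 1 list counted under each. Of these, 42 had passed, and 36 of the 42 lost their call without WT replicate 3, 25 without KO replicate 3, 14 without WT replicate 2, 13 without KO replicate 1, 3 without WT replicate 1 and 19 when the slide was a block.

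Of PPARα itself and its partners, 5 of 16 measured genes rose and 1 fell (37.5%, against 28.6% of all probes tested). Lpin1, a phosphatidate phosphatase and coactivator of PPARα, rose by 2.92 (SE 0.21, limma adjusted p = 0.00425), and Ppargc1a, the coactivator induced by fasting, by 1.54 (SE 0.15, adjusted p = 0.00649). Ppard, the related receptor PPARδ, fell by 0.62 (SE 0.10, adjusted p = 0.0112). The brightest Ppara probe read 4.52, 4.60 and 4.60 in Sec15 KO, against 4.30, 3.45 and 3.91 in WT. All KO arrays were above all WT arrays, yet the difference of 0.69 (SE 0.22) did not pass (adjusted p = 0.0600), and the other Ppara probes differed by 0.10 and -0.11. When the slide was a block, Lpin1 and Ppargc1a stood at 2.63 and 1.53 and were the 2 of the 16 that passed. Without WT replicate 3 or without KO replicate 3, 2 passed as well, and without WT replicate 2, 2 rose and 1 fell.

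The proteins that serve Cyp4a enzymes, and the enzymes that act after them, were counted too. Of 27 measured, 9 rose and 2 fell (40.7%, against 28.6% of all probes tested). Their median of 0.12 turned to -0.033 with quantile normalization and to -0.056 after cyclic loess. Por, the reductase that passes electrons to every microsomal P450, read 6.35, 6.12 and 6.21 in Sec15 KO, against 5.56, 5.36 and 5.48 in WT. Its difference was 0.76 (SE 0.11, limma adjusted p = 0.00989), with an adjusted p of 0.0607 without WT replicate 3 and 0.0547 without KO replicate 3. Cyb5a, the cytochrome b5 that can donate electrons to P450s, rose by 0.37 (adjusted p = 0.0340), but stood at 0.08 after cyclic loess normalization. Aldh3a2, the fatty aldehyde dehydrogenase that completes the step to the dicarboxylic acid, was named after its value was seen and differed by 0.02 (adjusted p = 0.919). When the slide was a block, 4 of the 27 rose. The number that passed was 0 without WT replicate 3, 2 without KO replicate 3, 3 without WT replicate 2, 4 without KO replicate 1 and 7 without WT replicate 1.

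Among the 12 measured Cyp4 genes outside the members, 2 rose and 1 fell (25%, below the 28.6% of all probes tested). Their median of 0.03 turned to -0.054 when the slide was a block. Cyp4f15 rose by 0.48 (limma adjusted p = 0.0311) and Cyp4f16 by 0.57 (adjusted p = 0.0318), while Cyp4f18, a hydroxylase of leukotrienes and other lipids, fell by 0.93 (adjusted p = 0.0172). None of these 3 passed without WT replicate 3, KO replicate 3 or KO replicate 1, or when the slide was a block. Without WT replicate 1 or 2, only Cyp4f18 did, and without KO replicate 2, 4 rose and 2 fell. Of 16 measured enzymes that make or clear other eicosanoids, 3 rose (Cyp2c70, Ptgs1 and Pla2g12b) and none fell (18.8%, also below the share of all probes). Their median of 0.16 turned to -0.11 when the slide was a block, to -0.018 with quantile normalization and to -0.033 after cyclic loess, and 1 of them fell under each of these normalizations. Of these 16, 0 passed without WT replicate 3, KO replicate 3 or KO replicate 1, or when the slide was a block, and 1 passed without WT replicate 2. Cyp2c38 did not pass on its brightest probe (-0.20), but its other probe rose by 3.97 (limma adjusted p = 0.00651), so its probes disagreed.

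Because Cyp4a12 is a male-biased liver gene pair, other sex-biased liver genes were counted, with the members left out. Of 28 measured male-biased genes, 0 rose and 10 fell (35.7%, against 28.6% of all probes tested), with a median of -0.47. Hsd3b5, a male-specific steroid dehydrogenase, fell by 1.21 (SE 0.15, limma adjusted p = 0.00829), C6, a complement component, by 1.70, Susd4 by 1.03, Serpina12 by 0.96, Mup21 by 0.96 and Cyp7b1, an oxysterol hydroxylase, by 0.83. Cyp2d9 and Mup20, named after their values were seen, differed by -0.14 (adjusted p = 0.417) and -0.24 (adjusted p = 0.240). Of 28 measured female-biased genes, 17 rose and 0 fell (60.7%). Their median of 1.09 stood at 0.56 when the slide was a block and at 0.66 with normexp. Cux2, a repressor of male-biased genes in female liver, gave a bound of at least 4.20-fold (adjusted p = 0.00371), since no WT array had it well above background. Cyp2b10 rose by 3.79 (SE 0.26, adjusted p = 0.00377) and Cyp39a1 by 2.06. When the slide was a block, 5 male-biased genes fell, while 8 female-biased genes rose and 1 fell. Male-biased falls numbered 0 without WT replicate 3, 1 without KO replicate 3, and 4 without KO replicate 1 or WT replicate 2. Female-biased rises numbered 4 without WT replicate 3, 7 without KO replicate 3, and 10 without KO replicate 1 or WT replicate 2. After cyclic loess normalization 17 male-biased genes fell.

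Growth hormone acts on sex-biased liver genes through the kinase JAK2 and the factor STAT5b, and of 23 measured genes of that axis 6 rose and 1 fell (30.4%, against 28.6% of all probes tested). Socs3, a feedback inhibitor that STAT3 induces, read 0.07, 0.16 and 0.11 in Sec15 KO, against 1.55, 1.09 and 1.33 in WT, and fell by 1.21 (SE 0.14, limma adjusted p = 0.00697). Socs2, the growth hormone induced inhibitor, rose by 0.80 (SE 0.13, adjusted p = 0.0125). Stat5b read 5.57, 6.58 and 6.16 in Sec15 KO, against 6.47, 6.87 and 6.83 in WT. These groups overlapped and the difference was -0.62 (adjusted p = 0.131), while another Stat5b probe rose by 0.31 (adjusted p = 0.0433), so the probes disagreed. Stat3 differed by 0.05 (adjusted p = 0.793) and on another probe by -0.23 (adjusted p = 0.408). Without WT replicate 3 none of the 23 passed, without KO replicate 3 only Socs3 did, without WT replicate 2 there were 3 rises and 1 fall, without KO replicate 2 there were 8 and 3, and when the slide was a block 3 rises and 2 falls.

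**Figure D4:**
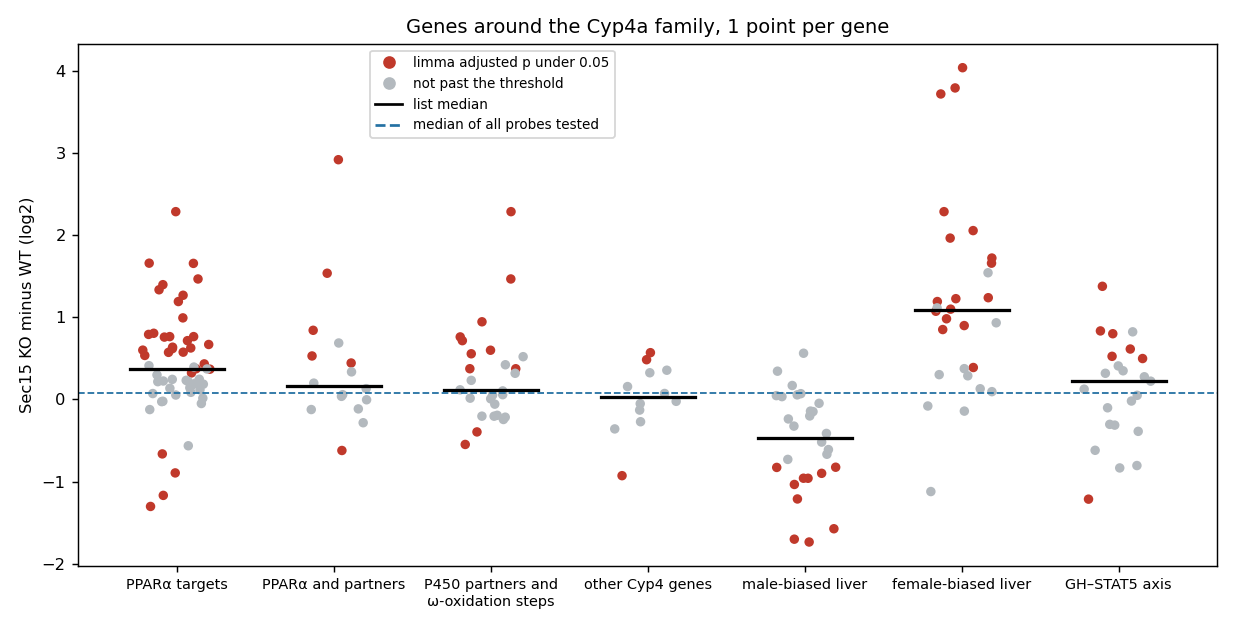
Sec15 KO minus WT difference (log2) of each measured gene of 7 lists, 1 point per gene, in red where the limma adjusted p was under 0.05. Black bars are list medians, from -0.47 for male-biased to 1.09 for female-biased liver genes, and the dashed line is the median of all probes tested, 0.08.

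Markers of other cell types were counted too, against 28.6% of all probes tested past the threshold. Cyp4a enzymes are also made in kidney tubules, whose markers had a summed level of 1.96 to 2.38 in Sec15 KO and 2.50 to 2.62 in WT (log2). Of 9 measured kidney markers, 0 rose and 2, Slc22a6 and Lrp2, fell (22.2%, below the share of all probes). The defining transporters Slc12a1 and Slc12a3 were not measured on enough arrays. Erythroid markers summed to 8.60 to 8.94 in Sec15 KO and 6.60 to 7.15 in WT, with 10 of 18 higher and 3 lower past the threshold (72.2%). The sum is carried by globins, such as Hba-a2 at 7.76 to 7.98 in Sec15 KO and 5.74 to 6.43 in WT. The 3 that fell were Hbb-y, Tspo2 and Rhag, and Alas2 differed by 0.02 (limma adjusted p = 0.954). Pancreas markers summed to 3.67 to 3.69 in Sec15 KO and 3.73 to 4.11 in WT (1 of 12 rose and 6 fell, 58.3%). Adipocyte markers summed to 2.60 to 3.02 in Sec15 KO and 1.58 to 1.69 in WT (1 of 5 rose and 2 fell, 60%). That sum is carried by Fabp4, at 2.44 to 2.90 in Sec15 KO and 1.03 to 1.12 in WT, while Cfd and Retn fell, and Adipoq and Lep were not measured. The part of these cells in the Cyp4a differences was not tested, and the counts of these marker lists were not repeated under the alternative fits.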

How the data were processed

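The deposited files hold spot intensity from Agilent Feature Extraction 11.0.1.1, per the file headers and the submitters' processing notes. The authors' processed signal is background-subtracted and detrended, and it is not normalised between arrays. The other deposited flags, coded 0 or 1, mark spots well above background, saturated or outlying. Of 43020 non-control spots on each array, 178 to 236 outliers were left out and 0 were saturated, and spots of 1 probe were averaged.

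Log2 of the deposited signal minus the array's 75th percentile was fitted with limma 3.58.1 in R 4.3.3 (lmFit and eBayes, data.table version 1.17.8, jsonlite 2.0.0), with Benjamini-Hochberg adjustment over 27024 probes at a threshold of 0.05. Figures and motif searches used Python 3.11.15, pandas 2.3.3 and matplotlib 3.10.9. The files hold no gene names, so accessions were matched to a RefSeq list of genes (GRCm38.p6), for names and gene order. Of the probes, 27234 matched a symbol and 12195 did not. Outside the members, a gene is its probe with the highest mean. The share of all probes tested also covers dimmer probes, so it is only a rough yardstick for the lists. With 1 probe per gene, 6816 of 23014 passed. Among probes well above background on all 6 arrays, 8057 of 23082 passed, with a median of 0.12. A fold against a group where no array had the gene well above background is given as a bound, from the lowest signal well above background on each array.

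Members and lists were chosen with earlier results of these data known. Named genes are all member probes, the 6 smallest p of each list, Ppara, Por, Stat5b, Stat3, cluster neighbours, 3 nearest genes to each member probe and the Sec15 probes. Aldh3a2, Cyp2c38, Cyp2d9, Mup20, Fga, the marker genes and the 4 PPARα targets that fell were named after their values were seen. A comparison of member proteins is not analysed here. Some genes of the lists are not reported here. The alternatives were 3 normalizations, normexp (offset 50), 2 filters, a trended robust fit, array weights, replicate and slide blocks, slide 1 alone (slides were taken from scan time), WT replicates 1 and 2 averaged, 1 probe per gene and each replicate left out. Limma was tested on simulated data.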

Additional observations from a re-analysis of the deposited data

How the results depend on the processing

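The direction of the Cyp4a differences held in the alternatives run for 9 of the 10 probes. Both filters, the trended robust fit, the replicate block and 1 probe per gene leave these differences unchanged by construction, and the slide block and slide 1 alone give 1 and the same value. The exception, Cyp4a31 A_55_P1952399, turned to -0.0073 after cyclic loess and to -0.089 with the slide as a block or on slide 1 alone. Quantile normalization gave 0.81 (Cyp4a10 A_51_P254895), -1.79 (Cyp4a12a), -1.87 (Cyp4a12b) and 0.74 (Cyp4a31 A_55_P2050628). Cyclic loess gave 0.15 (Cyp4a10 A_55_P2092030), -1.86 (Cyp4a12a), -1.94 (Cyp4a12b) and 0.84 (Cyp4a32). Median centring gave -1.47 (Cyp4a12a) and -1.55 (Cyp4a12b). Normexp gave -1.77 (Cyp4a12a), -1.82 (Cyp4a12b), 3.63 (Cyp4a14), 0.91 (Cyp4a31 A_55_P2024033) and 0.83 (Cyp4a32). Slide as a block and slide 1 alone gave 0.84 (Cyp4a10 A_51_P254895), -1.54 (Cyp4a12b) and 1.00 (Cyp4a31 A_55_P2024033). Leaving out 1 replicate gave 3.75 to 4.11 for Cyp4a14, 0.98 to 1.29, 1.24 to 1.64 and 0.27 to 0.52 for Cyp4a10 A_51_P254895, A_55_P2011111 and A_55_P2092030, -1.64 to -1.55 for Cyp4a12a, -1.73 to -1.60 for Cyp4a12b, 0.05 to 0.31, 1.17 to 1.38 and 0.87 to 1.17 for Cyp4a31 A_55_P1952399, A_55_P2024033 and A_55_P2050628, and 0.97 to 1.20 for Cyp4a32.

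Counts moved more. Over all probes, 59.4% of calls were higher in KO, against 70.1% after median centring and 47.8% after cyclic loess, and the median of all probes was 0.08, 0.19 and 0.00. Quantile normalization left 5 calls among P450 partners. Cyclic loess left 2947 higher calls in all, 19 among PPARα targets, 6 among P450 partners, 17 among male-biased genes and 4 on the growth hormone axis. Normexp left 1 among other Cyp4 genes, as did averaging WT replicates 1 and 2. With no filter there were 2934 higher calls in all, 5 among P450 partners, 1 among other Cyp4 genes, 1 among eicosanoid enzymes and 6 among male-biased genes. With the slide as a block there were 1311 higher and 1212 lower in all, and 2 (PPARα partners), 14 (targets), 4 (P450 partners), 0 (other Cyp4), 0 (eicosanoid), 5 (male-biased) and 9 (female-biased). Slide 1 alone, where KO replicate 2 is assumed to vary like the WT arrays, left 0 limma calls in all and in each list, with 7833 probes at an unadjusted p under 0.05. Array weights gave 12002 higher and 9154 lower calls, and 11, 18, 8, 7, 22 and 21 for PPARα partners, P450 partners, other Cyp4, eicosanoid, male-biased and growth hormone genes. The 22 male-biased calls were 5 higher and 17 lower, and the 21 growth hormone calls were 12 higher and 9 lower. These weights were dominated by WT replicate 3 (12.0) and KO replicate 3 (4.38), with 0.14 to 0.67 for the others. Averaging WT replicates 1 and 2 gave 1 male-biased rise and 9 falls. Leaving out 1 replicate gave 204 to 6815 higher and 149 to 5784 lower calls in all, and 2 to 6 (PPARα partners), 0 to 32 (targets), 0 to 12 (P450 partners), 0 to 6 (other Cyp4), 0 to 4 (eicosanoid), 0 to 9 (male-biased), 4 to 21 (female-biased) and 0 to 11 (growth hormone axis). All calls numbered 353 without WT replicate 3, 998 without KO replicate 3 and 7742 with all arrays. Ephx2, which did not pass, turned to -0.050 with quantile normalization, -0.035 with cyclic loess and -0.15 with normexp. The cause of these shifts was not tested. As a replicate block, the number gave 6125 calls. Same-numbered samples deviated together with correlations of 0.10, 0.11 and 0.02, and KO replicate 3 correlated better with WT replicate 1 (0.04) than with WT replicate 3, so the numbers were not taken to pair the samples.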
